A study of Homo sapiens with 6 samples.

Results

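The genes described here are 10 early response genes, EGR1, EGR2, EGR3, EGR4, IER2, IER3, KLF2, KLF4, KLF6 and KLF10, taken by symbol from a table of 20289 genes, in which all 10 were found. RNA was sequenced from 6 libraries labelled T24, a human bladder cancer cell line grown in serum-containing medium. A pcDNA3.1 plasmid with LINC00665, a long non-coding RNA between protein-coding genes, had been introduced by lipofection into 3 cultures (LINC00665 label, genotype given as LINC00665 overexpression) and a Vector plasmid into the other 3 (Vector label, genotype given as control). The series text names 3 independent experiments, and gives the role of LINC00665 in the spread of bladder cancer to lymph nodes as its question. Under both labels the cells were pooled in bulk and had passed through transfection, so fewer cells that express a gene and less RNA per cell cannot be told apart.

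Early growth response (EGR) proteins are zinc finger transcription factors that bind GC-rich DNA. Their genes are switched on without new protein synthesis when growth factors, stress or injury activate the kinase cascade from RAS to ERK. ERK phosphorylates ternary complex factors such as ELK1, which sit with serum response factor (SRF) on CArG boxes in the promoters, and the RNAs that follow are short-lived. The Kruppel-like factors (KLF) share a different zinc finger arrangement and bind GC or CACCC boxes; KLF2, KLF4, KLF6 and KLF10 are themselves rapidly induced in many cells. IER2 and IER3 were named as immediate early response genes and encode proteins without zinc fingers.

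The EGR1 and EGR2 promoters are printed here because they hold the CArG boxes that define this type of response, and the KLF4 promoter because KLF4 rose as well and held none. Each sequence is the 250 bases before a RefSeq transcription start on GRCh38.p14, on the gene's own strand, 5′ to 3′, with CArG boxes in capitals. EGR1 (chr5:138465229-138465478, plus strand) held 2 boxes, beginning 105 and 83 bases before the start. EGR2 (chr10:62816367-62816616, minus strand, the third of its 3 listed starts) held 1, beginning 71 bases before the start, and KLF4 (chr9:107489770-107490019, minus strand) held 0.
EGR1: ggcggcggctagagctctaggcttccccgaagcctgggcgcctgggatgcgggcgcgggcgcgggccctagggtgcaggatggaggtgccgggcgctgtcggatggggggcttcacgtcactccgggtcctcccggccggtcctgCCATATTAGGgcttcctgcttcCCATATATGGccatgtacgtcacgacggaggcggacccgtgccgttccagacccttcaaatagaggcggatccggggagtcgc
EGR2: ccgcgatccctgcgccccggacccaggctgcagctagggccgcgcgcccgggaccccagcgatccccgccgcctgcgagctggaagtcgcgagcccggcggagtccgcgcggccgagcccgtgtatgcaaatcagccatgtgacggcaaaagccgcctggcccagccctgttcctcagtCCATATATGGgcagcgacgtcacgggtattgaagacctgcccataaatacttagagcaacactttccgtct
KLF4: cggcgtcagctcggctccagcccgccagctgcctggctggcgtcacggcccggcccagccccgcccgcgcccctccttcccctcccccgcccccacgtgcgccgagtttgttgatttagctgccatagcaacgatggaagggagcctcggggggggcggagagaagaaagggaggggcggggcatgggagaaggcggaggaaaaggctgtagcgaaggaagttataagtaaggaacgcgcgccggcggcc
Promoter windows were at hand for 7 of the 10 genes, and 2 of the 7 held a CArG box in at least 1 window, searched on both strands. This count is per gene, with 3 windows for EGR2 and 1 for each other gene, whereas the shares that follow are per window. Of all 35116 promoter windows of the same length, 1.16% held a CArG box and 0.0313% held 2 or more. The letters TGACG, the core of the cyclic AMP response element, occurred 2 times each in the windows of EGR1, EGR4 and KLF4. They also occurred 2 times in the third window of EGR2 and 1 time in the IER2 window. The KLF2 and KLF6 windows and the first and second windows of EGR2 held 0. Of all windows, 21.2% held these letters at least 1 time and 4.76% held them 2 or more times. The letters GGGCGG, a GC box of the kind that SP and KLF proteins bind, occurred 4 times each in the KLF2 and KLF4 windows and the second window of EGR2, 3 times in the IER2 window, 2 times each in the KLF6 window and the first window of EGR2, and at least 1 time in 42.6% of all windows. The letters GCGGGGGCG, a binding site of EGR proteins that can overlap a GC box, occurred 1 time each in the KLF2 and KLF6 windows and in 4.72% of all windows, and the variant GCGTGGGCG in 0 of the members' windows and 0.72% of all. By GENCODE v29, exon covered 157 of the 250 bases of the EGR4 window, 72 of the KLF6 window and 9 of the KLF2 window. A match of letters is a description of the window and not a mapped binding site.

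The libraries held 19114096 to 22725687 expected counts under the LINC00665 label and 17289788 to 20023417 under the Vector label. When sample identity was checked, 3 of 6 libraries were unlike the labelled line. Groups are called by their labels for this reason, and line and plasmid cannot be told apart in any value given here. Of 18 urothelial markers, 15 had a mean of at least 1 CPM (counts scaled to library size) under the LINC00665 label and 7 under the Vector label, with summed levels of 9660 to 10700 CPM in LINC00665 and 1080 to 3400 CPM in Vector libraries. Nearly all of the Vector sum came from KRT8 and KRT18, which averaged 886 and 1060 CPM there. No other marker of this list exceeded the 13.5 CPM of ELF3 under the Vector label. KRT13, KRT20, UPK3A and GRHL2 had 0 counts under the Vector label and KRT20 had 0 under the LINC00665 label. Of 9 kidney tubule markers, 2 reached 1 CPM under the LINC00665 label and 5 under the Vector label. Their sums were 30.6 to 33.8 CPM in LINC00665 and 403 to 567 CPM in Vector libraries. The 2 did not go the same way. LHX1 went against the sums, with means of 17.5 CPM in LINC00665 and 0.354 CPM in Vector libraries. PAX8 went with them, with means of 13.9 CPM in LINC00665 and 277 CPM in Vector libraries. CDH16 had 0 counts under the LINC00665 label and CDH6 and EMX2 had 0 under the Vector label. Fibroblast markers summed to 231 to 264 CPM under the LINC00665 label and 2.19 to 4.39 CPM under the Vector label, with DCN, PDGFRA and FAP at 0 counts under the Vector label. Endothelial markers summed to 10.6 to 13.0 CPM in LINC00665 and 0.3 to 1.21 CPM in Vector libraries, and leukocyte markers to 114 to 174 CPM in LINC00665 and 11.3 to 18.0 CPM in Vector libraries. Markers of these 2 lists with 0 counts included CLDN5, EMCN and PTPRC under the LINC00665 label, and VWF, KDR, TEK, EMCN, CD3E and CSF1R under the Vector label. The part of these differences in the results below was not tested. LINC00665 itself had 0 rows in the table and its level was not analysed here.

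Of the 10 genes, 9 rose under the LINC00665 label, 0 fell and KLF6 did not pass the test. EGR2, EGR3, KLF4 and EGR1 differed most, by 25.3-fold to 87.8-fold in mean CPM, and the other 5 that rose differed by 2.57-fold to 4.01-fold. The test was the quasi-likelihood test of edgeR, with a Benjamini-Hochberg adjusted p of 0.05 as threshold, and it called 34.2% of the 13552 genes tested higher and 29.3% lower (63.5% either way). The LINC00665 libraries lay entirely above the Vector libraries for these 9 genes and for 37.9% of all genes tested. The median log2 fold change was 2.11 over the 10 genes and 0.03 over all genes tested. The log2 fold changes of EGR1, EGR2, EGR3 and KLF4 lay above those of 90.9 to 93.5% of all genes tested, which places them among the larger differences of this comparison without setting them apart. All 10 passed the filter on low counts. EGR2 and EGR3 had fewer than 10 counts in at least 1 Vector library and passed through their level under the LINC00665 label, which ties their direction to this filter.

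**Figure D1:**
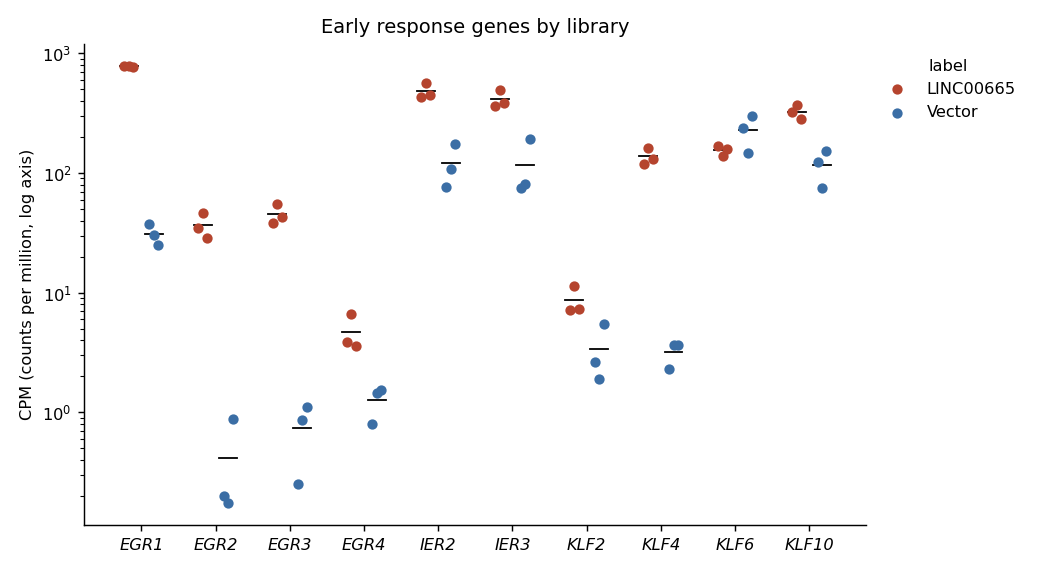
CPM of each early response gene (log axis) in the 3 LINC00665 libraries (left of each pair) and the 3 Vector libraries (right), with a bar at the mean of each label. The labels do not overlap for 9 genes, and for KLF6 the LINC00665 libraries (140 to 168 CPM) overlap the Vector libraries (148 to 301 CPM).

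EGR1, the best studied activator and repressor of the family, lies on chromosome 5 at 138465490 to 138469315 of GRCh38, on the plus strand. It stood at 787, 787 and 764 CPM in LINC00665 libraries 1 to 3, against 37.4, 30.1 and 24.8 CPM in Vector libraries 1 to 3. Its coefficient of variation over the 3 LINC00665 libraries was 1.73%, the lowest of the 10 genes, and no Vector library came near their level. The log2 fold change was 4.83 (SE 0.20, edgeR adjusted p = 4.4e-07). The fit scales libraries by the trimmed mean of M-values (TMM), which puts the EGR1 mean at 825 ± 36.3 CPM under the LINC00665 label (coefficient of variation 4.4%, again the lowest of the 10), where scaling by the total count gives 779 ± 13.5 CPM, so fitted fold changes and ratios of the printed CPM differ slightly.

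EGR2, required for myelination and hindbrain patterning in mouse, had 34.8, 46.3 and 28.7 CPM in the LINC00665 libraries and 0.2, 0.174 and 0.877 CPM in the Vector libraries. These are 23 counts in all under the Vector label, 16 of them in Vector 3, so the size of the difference rests on few counts there. The log2 fold change was 6.61 (SE 0.50, edgeR adjusted p = 1.1e-05), the largest of the 10, and 7.73 (SE 0.41) without Vector 3. EGR3, which EGR1 and lymphocyte activation signals can induce, had 38.3, 55.1 and 42.7 CPM in the LINC00665 libraries against 0.25, 0.868 and 1.1 CPM in the Vector libraries. The groups were far apart, and the log2 fold change of EGR3 was 6.12 (SE 0.42, edgeR adjusted p = 6.3e-06). EGR4 was the lowest of the family under the LINC00665 label, at 3.83, 6.61 and 3.56 CPM there against 0.799, 1.45 and 1.54 CPM in the Vector libraries. It rose by 2.06 on the log2 scale (SE 0.39, edgeR adjusted p = 0.0019), less than the other EGR genes. The differences between members' fold changes were not tested.

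Per transcript length, EGR1 made up most of the EGR RNA under both labels. In FPKM, the authors' length-normalised unit, EGR1 averaged 248 ± 4.29 under the LINC00665 label and 9.81 ± 2.02 under the Vector label (SD, n = 3 each). This was 90.1% ± 2.28 of the summed FPKM of EGR1 to EGR4 under the LINC00665 label and 90.8% ± 4.95 under the Vector label, shares that overlap within their spread. Among the minor EGR genes the order differed. EGR2 (14.1 FPKM) and EGR3 (11.4 FPKM) exceeded EGR4 (2.04 FPKM) in mean level under the LINC00665 label, with ranges that did not overlap EGR4. Under the Vector label EGR4 (0.533 FPKM) had the highest mean of the 3, against 0.26 FPKM for EGR3 and 0.143 FPKM for EGR2, and neighbours in that order overlapped.

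IER2, a nuclear protein gene induced by serum, had 429, 571 and 450 CPM in the LINC00665 libraries and 77.1, 109 and 175 CPM in the Vector libraries. Every LINC00665 library lay above every Vector library, and the log2 fold change was 2.17 (SE 0.30, edgeR adjusted p = 0.00036). IER3, a stress-inducible regulator of cell survival and ERK signalling that NF-kB also induces, had 360, 498 and 384 CPM in the LINC00665 libraries and 75.1, 80.7 and 192 CPM in the Vector libraries. Vector 3 stood apart from the other Vector libraries for IER3, yet below each LINC00665 library, and the gene rose by 2.0 on the log2 scale (SE 0.37, edgeR adjusted p = 0.0016). The ratio between the pair hardly moved. IER3 was 56.3% ± 0.301 of their summed FPKM under the LINC00665 label and 60.0% ± 4.2 under the Vector label (SD, n = 3 each). GENCODE v29 places an overlapping gene on the other strand at IER2, IER3 and EGR3, and as no source used here says whether counting used strand, reads of these partners cannot be told apart from theirs.

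The KLF genes did not move as a block. KLF4, a regulator of epithelial differentiation and a reprogramming factor, had 120, 163 and 130 CPM in the LINC00665 libraries against 2.3, 3.64 and 3.67 CPM in the Vector libraries. It was low in all Vector libraries, with 176 counts in all, and its log2 fold change was 5.59 (SE 0.26, edgeR adjusted p = 9.3e-07). KLF10, known as a TGF-beta-inducible early gene, had 325, 367 and 282 CPM in the LINC00665 libraries and 123, 75.6 and 154 CPM in the Vector libraries. Its groups did not overlap, and it rose by 1.63 on the log2 scale (SE 0.26, edgeR adjusted p = 0.00074). KLF2, best known as a flow-induced factor of endothelial cells, had 7.13, 11.4 and 7.32 CPM in the LINC00665 libraries and 2.65, 1.91 and 5.48 CPM in the Vector libraries. The log2 fold change was 1.53 (SE 0.40, edgeR adjusted p = 0.01), and without LINC00665 library 2 it was 1.23 (SE 0.44) and no longer past the threshold (edgeR adjusted p = 0.053). In FPKM its groups overlapped, at 5.01, 8.33 and 4.09 in the LINC00665 libraries and 1.25, 1.36 and 4.19 in the Vector libraries.

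KLF6, a broadly expressed factor, was the exception. It had 168, 140 and 159 CPM in the LINC00665 libraries and 239, 148 and 301 CPM in the Vector libraries. The groups overlapped through Vector 2, and its log2 fold change, -0.40 with an SE of 0.24, did not pass the test (edgeR adjusted p = 0.18). Without Vector 2 the value was -0.63 (SE 0.15) and passed (edgeR adjusted p = 0.0071), and without Vector 3 it was -0.16 (SE 0.20, edgeR adjusted p = 0.51), so the call rests on single Vector libraries.

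**Figure D2:**
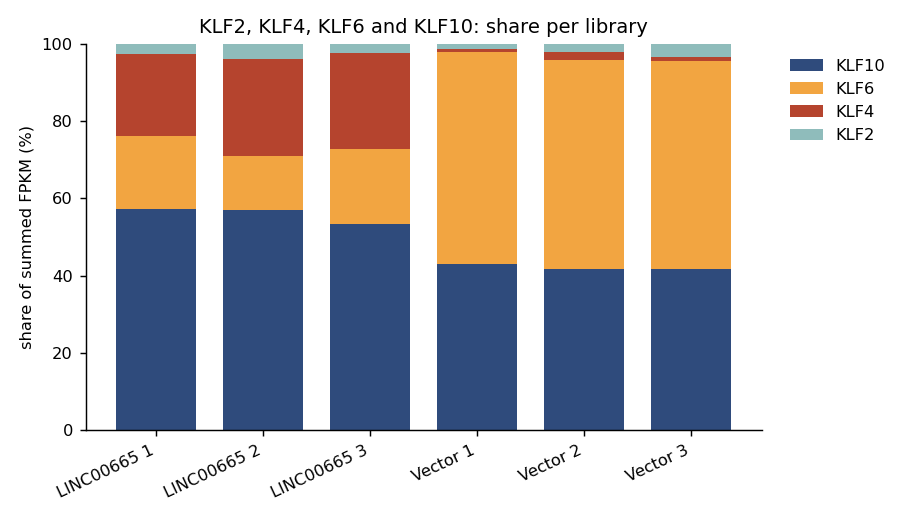
Share of the summed FPKM of KLF2, KLF4, KLF6 and KLF10 (percent) taken by each gene in every library, LINC00665 libraries left and Vector libraries right. KLF10 and KLF4 make up most of it under the LINC00665 label, KLF6 and KLF10 under the Vector label.

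The make-up of the KLF RNA differed between labels. KLF10 held 55.9% ± 2.15 of the summed FPKM of the 4 KLF genes under the LINC00665 label and 42.2% ± 0.815 under the Vector label (SD, n = 3 each). KLF4 held 23.8% ± 2.3 in LINC00665 and 1.34% ± 0.601 in Vector libraries, and KLF6 17.4% ± 3.01 in LINC00665 and 54.2% ± 0.482 in Vector libraries. The sum itself averaged 198 ± 20.8 FPKM under the LINC00665 label and 95.2 ± 32.3 FPKM under the Vector label. Shares of a sum depend on each other, so they add no evidence to the tests of the single genes.

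Ranked by mean FPKM over all 10 genes, IER3 and IER2 came first under both labels, at 334 ± 59.6 and 260 ± 44.4 FPKM under the LINC00665 label and 93.5 ± 53.2 and 60.3 ± 27.1 FPKM under the Vector label. EGR1 was the third of the 10 under the LINC00665 label and the fifth under the Vector label. Under the LINC00665 label the libraries of IER3 and IER2, of IER2 and EGR1, and of EGR2 and EGR3 overlapped, and all other neighbours in the order were apart. Under the Vector label the neighbours IER3 and IER2, IER2 and KLF6, and KLF6 and KLF10 overlapped. So did KLF2 and KLF4, EGR4 and EGR3, and EGR3 and EGR2, and all other neighbours, KLF10 and EGR1 among them, were apart. KLF4, at 1.18 ± 0.339 FPKM under the Vector label, ranked below KLF2 there, but above both KLF6 and KLF2 under the LINC00665 label, at 47.3 ± 7.71 FPKM.

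**Figure D3:**
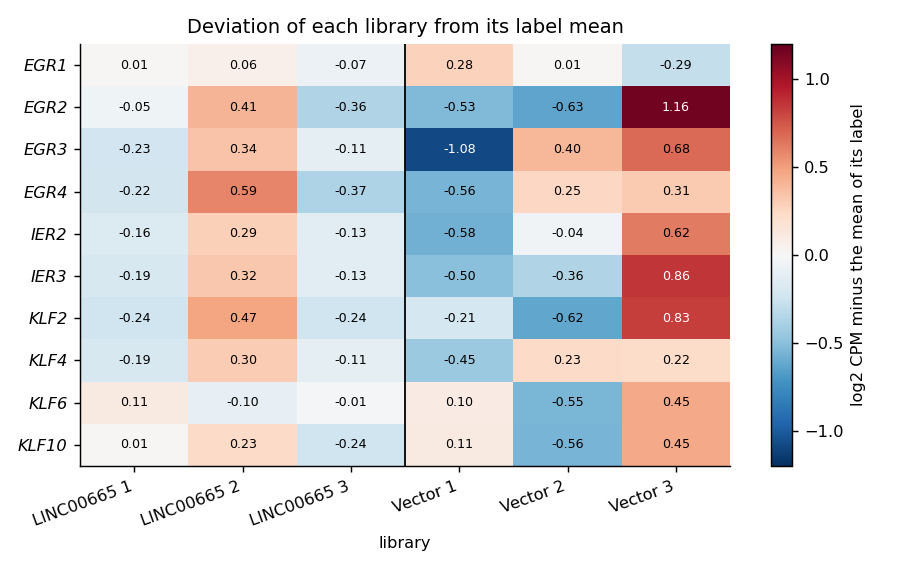
Deviation of each library from the mean of its own label, in log2 CPM with TMM library sizes, for the 10 early response genes (rows) in the LINC00665 libraries (left) and Vector libraries (right). LINC00665 2 is the highest of its label for 9 genes and Vector 3 for 8 genes.

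Within each label the early response genes tended to be high in the same library. On CPM with TMM library sizes, LINC00665 2 was the highest LINC00665 library for 9 of the 10 genes, KLF6 being the exception, whereas it was the highest for 38.7% of all genes tested. Vector 3 was the highest Vector library for 8 of the 10, all but EGR1 and KLF4, against 36.6% of all genes tested. Both libraries also led for other immediate early genes, in 23 of 30 cases for LINC00665 2 and 18 of 30 for Vector 3. Genes of 1 library share that library, so these counts are a description and carry no test. The sum of 12 heat shock genes was likewise highest in LINC00665 2, at 21400 CPM, against 16700 and 17600 CPM in the other LINC00665 libraries. In Vector 3 that sum was 4180 CPM, between the 4560 CPM of Vector 1 and the 4050 CPM of Vector 2. The part of heat shock genes in these deviations was not tested.

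The spread also differed between labels. The coefficient of variation of CPM was larger under the Vector label for 9 of the 10 genes, EGR4 being the exception. It ran from 1.73% (EGR1) to 36.2% (EGR4) under the LINC00665 label and from 20.6% (EGR1) to 95.7% (EGR2) under the Vector label. Over all genes tested the median was 11.1% under the LINC00665 label and 20.9% under the Vector label, so wider spread under the Vector label was general.

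Among the relatives of the members, more genes rose than fell, where 34.2% of all genes tested rose and 29.3% fell. Of 22 other KLF and SP genes, 18 were tested, 13 rose and 0 fell, with a median log2 fold change of 2.05, also with the 2 genes at 0 counts under the Vector label (KLF8 and SP8) set at their lower bound. Of the 13, 4 (KLF8, KLF15, SP8 and SP9) had fewer than 10 counts in at least 1 Vector library and passed the filter through their level under the LINC00665 label, which ties their direction to it. KLF5, a factor of basal and proliferating epithelium, averaged 372 ± 7.06 CPM under the LINC00665 label and 10.0 ± 2.85 CPM under the Vector label (log2 fold change 5.38, SE 0.24, edgeR adjusted p = 6.5e-07). SP6 averaged 16.4 CPM in LINC00665 and 0.996 CPM in Vector libraries. KLF12 averaged 17.4 CPM in LINC00665 and 3.48 CPM in Vector libraries, and KLF7 73.2 CPM in LINC00665 and 18.1 CPM in Vector libraries. KLF13, SP1 and SP3, named after their values were seen, had log2 fold changes of -0.50, -0.34 and -0.41 and were not called with TMM scaling. With upper quartile or total count scaling 3 of the 18 were called lower.

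**Figure D4:**
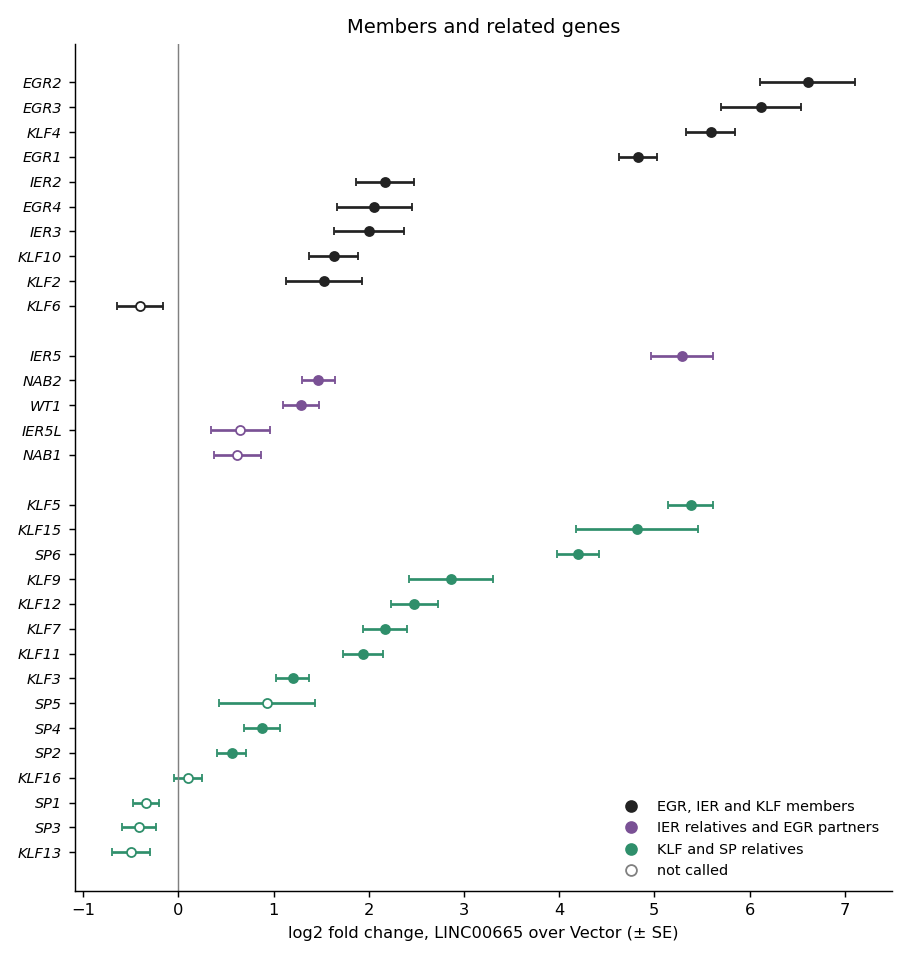
Log2 fold change of LINC00665 over Vector (± SE) for the 10 early response genes (black), the IER relatives and EGR partners (purple) and the KLF and SP relatives (green), with open circles for genes that did not pass the test. KLF6 (-0.40) is the only one of the 10 below 0, and KLF8, SP8 and SP9, with at most 3 counts under the Vector label, are left out.

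Of the 5 IER relatives and EGR partners, 3 rose, 0 fell and 2 did not pass. Among all genes tested, 34.2% rose and 29.3% fell (63.5% either way), so 3 calls of 5 are near the general share. IER5, an immediate early gene related to IER2, averaged 413 ± 69.4 CPM under the LINC00665 label and 11.8 ± 4.81 CPM under the Vector label (log2 fold change 5.29, SE 0.33, edgeR adjusted p = 4e-06). NAB2, a co-repressor that EGR proteins induce and that in turn binds them, averaged 66.9 ± 10.1 CPM in LINC00665 and 27.2 ± 0.627 CPM in Vector libraries and rose by 1.47 (SE 0.17, edgeR adjusted p = 0.00012). The related co-repressor NAB1 had 78.6 CPM in LINC00665 and 57.5 CPM in Vector libraries and did not pass (edgeR adjusted p = 0.062, with DESeq2 an adjusted p = 0.041, and without Vector 3 an edgeR adjusted p = 0.015). WT1, a zinc finger protein that binds sites like those of EGR1, averaged 11.9 CPM in LINC00665 and 5.44 CPM in Vector libraries, and rose by 1.29 on the log2 scale (SE 0.19, edgeR adjusted p = 0.00049).

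The genes of the upstream pathway moved in both directions. Of 26 such genes 6 rose, 6 fell and 14 did not pass, with a median log2 fold change of -0.02, where 63.5% of all genes tested were called. SRF, the factor on the CArG boxes, averaged 43.2 ± 3.79 CPM under the LINC00665 label and 102 ± 20.2 CPM under the Vector label, and fell by 1.08 on the log2 scale (SE 0.17, edgeR adjusted p = 0.00071). Its coactivator gene MRTFB averaged 18.1 CPM in LINC00665 and 56.2 CPM in Vector libraries and fell by 1.48 (SE 0.20, edgeR adjusted p = 3e-04). NRAS averaged 71.5 CPM in LINC00665 and 268 CPM in Vector libraries and fell by 1.75 (SE 0.18, edgeR adjusted p = 6.8e-05). ELK1 and ELK3, also named after their values were seen, had log2 fold changes of -0.04 and 0.04. RNA levels of these genes do not report the activity of their proteins.

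**Figure D5:**
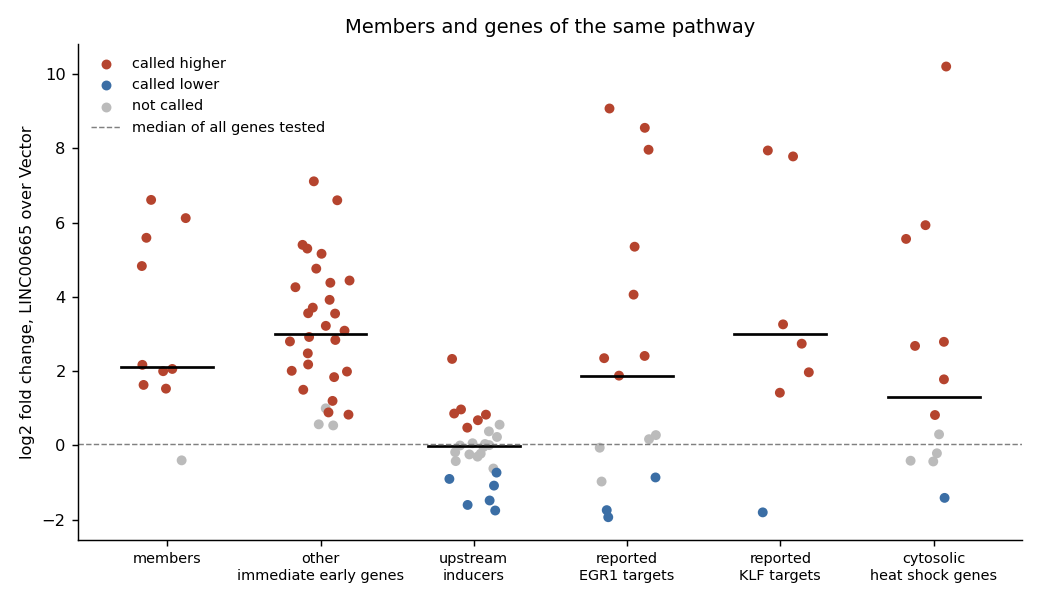
Log2 fold change of LINC00665 over Vector for each tested gene (points) of the 10 early response genes and of 5 related lists, coloured by call, with a bar at each list's median and a dashed line at the median of all genes tested (0.03). The upstream inducers centre on -0.02 and the other immediate early genes on 3.0, and IVL, at 0 counts under the Vector label, is not drawn.

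Most other immediate early genes were higher as well. Of 30, 27 rose, 0 fell and 3 (MCL1, CCN1 and CCN2) did not pass, with a median log2 fold change of 3.0. Among all genes tested, 34.2% rose and 29.3% fell. ARC, 1 of the 27, had fewer than 10 counts in each Vector library and passed the filter through the LINC00665 libraries. FOS, a component of AP-1, averaged 373 ± 94.2 CPM under the LINC00665 label and 3.04 ± 0.276 CPM under the Vector label (log2 fold change 7.11, SE 0.28, edgeR adjusted p = 3.7e-07). FOSL1, another AP-1 gene, averaged 1470 CPM in LINC00665 and 61.1 CPM in Vector libraries. ZFP36, which encodes an mRNA decay factor for AU-rich transcripts, averaged 324 CPM in LINC00665 and 16.8 CPM in Vector libraries. PPP1R15A, a stress-induced phosphatase subunit, averaged 2250 CPM in LINC00665 and 132 CPM in Vector libraries. The same list and EGR1 were known to be high under the LINC00665 label when the genes described here were chosen, so they are no independent support.

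Genes reported as EGR1 targets in other systems moved in both directions. Of 15, 8 rose, 3 fell and 4 did not pass, with a median log2 fold change of 1.88. For this list and the KLF targets below, the shares over all genes tested were 34.2% higher and 29.3% lower. Of the 8, 2, PDGFA among them, had fewer than 10 counts in at least 1 Vector library and passed the filter through the LINC00665 libraries. The matrix metalloproteinase MMP14 averaged 408 CPM in LINC00665 and 1.22 CPM in Vector libraries. The growth factor PDGFA averaged 49.6 CPM in LINC00665 and 0.217 CPM in Vector libraries, and tissue factor, F3, 225 CPM in LINC00665 and 6.17 CPM in Vector libraries. GDF15, PDGFB and TGFB1, which are on the same list, fell, with log2 fold changes of -1.93, -1.74 and -0.86. Of 8 tested genes reported as targets of KLF2, KLF4, KLF6 or KLF10, 7 rose and 1 fell, with a median log2 fold change of 3.0. Of the 7, 3 (NOS3, CDKN1C and IVL) had fewer than 10 counts in at least 1 Vector library and were tested because of their LINC00665 level, so a fall could hardly have been found for them. Thrombomodulin, THBD, a target of KLF2 in endothelium, averaged 594 ± 78 CPM in LINC00665 and 2.7 ± 0.939 CPM in Vector libraries. The cell cycle inhibitor CDKN1C averaged 39.9 CPM in LINC00665 and 0.192 CPM in Vector libraries, and the TGF-beta inhibitor SMAD7 46.8 CPM in LINC00665 and 5.48 CPM in Vector libraries. ENG, a TGF-beta co-receptor gene and reported KLF6 target, averaged 30.5 ± 2.76 CPM in LINC00665 and 119 ± 22.5 CPM in Vector libraries and fell by 1.80 (SE 0.19, edgeR adjusted p = 6.8e-05).

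Heat shock genes, which mark proteotoxic stress, were measured because many early response genes are also stress-inducible. Of the 12 on the list, 7 rose and 1 fell, with a median log2 fold change of 1.30. Among all genes tested, 34.2% rose and 29.3% fell. The summed level of the list was 16700 to 21400 CPM under the LINC00665 label and 4050 to 4560 CPM under the Vector label. HSPD1 and HSPE1, on the same list, encode mitochondrial chaperones and did not pass with TMM scaling (log2 fold changes of -0.41 and -0.43). HSPA6, an inducible chaperone gene, averaged 1070 ± 177 CPM in LINC00665 and 1.01 ± 0.593 CPM in Vector libraries and needed its LINC00665 level to pass the filter, with 7 counts in Vector library 2. DNAJB1 averaged 4050 ± 384 CPM in LINC00665 and 96.0 ± 37.9 CPM in Vector libraries, and HSPH1 742 ± 45.7 CPM in LINC00665 and 120 ± 19.0 CPM in Vector libraries. HSPA1B, counted among those that rose, averaged 7880 CPM in LINC00665 and 145 CPM in Vector libraries. HSPA1A, the gene that fell, averaged 91.2 CPM in LINC00665 and 273 CPM in Vector libraries (log2 fold change -1.41, SE 0.21, edgeR adjusted p = 0.00053). These genes are nearly identical and reads can be split between them, so the value and direction of each are uncertain. The part of the heat shock genes in the differences of the early response genes was not tested.

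For the member with the highest mean FPKM in each family, the most similar profiles over the 6 libraries were looked up among 11047 genes with a mean of at least 5 CPM, by Euclidean distance of log2 CPM centred on each gene's mean. The nearest to EGR1 were DNAH11 (distance 0.31), DAB2 (0.37) and FOSL1 (0.42). Those to IER3 were BRME1 (0.34), ACOT4 (0.43) and CITED4 (0.44), and those to KLF10 were ZCCHC8 (0.23), TRAF2 (0.25) and PPP2R2A (0.27). With 3 libraries a label, such a distance mostly orders genes by the size of their difference between labels.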

How the data were processed

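Per the labels' protocols, TRIzol was used for RNA extraction and a TruSeq kit for the libraries. HISAT2 2.0.4 and hg38 are named in the submitters' processing notes, with no role stated. No counter, annotation or strand setting is given in the sources used here. The authors deposited expected counts (88.3 to 89.4% of them whole numbers) and FPKM values for 20289 genes, per the file headers. Counts were rounded, filtered with filterByExpr, scaled by TMM and tested with edgeR 4.0.16 in R 4.3.3 (quasi-likelihood, no covariate, Benjamini-Hochberg over 13552 genes, threshold 0.05). The SE is the absolute log2 fold change divided by the square root of F. Printed CPM values use total counts. The exact two-sided permutation p of a single gene cannot fall below 0.1 with 3 against 3 libraries. It was 0.1 for 9 members and 0.4 for KLF6.

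Members and lists were chosen with earlier results of these data known. Named genes were all members, the 4 genes of smallest p per list, and the 3 nearest profiles; others were named after their values were seen. Some genes of the lists, including some that this rule names, are not reported by name here, though the counts include them. Alternatives were other scalings, filters and thresholds, DESeq2 1.42.0, limma 3.58.1 (voom, and log2(FPKM + 1 or + 0.1)), a replicate block and leaving out each library. Library pairs within a label differed beyond sampling noise (chi-square per degree of freedom 9.85 to 116), so none was treated as a duplicate. No fit without the 3 mismatched libraries was possible. Positions are from GENCODE v29, and promoters from RefSeq (GRCh38.p14). The edgeR step was checked on simulated counts with far fewer genes changed than were called here, so that check does not cover a difference this broad. For the genes with few counts, counting error is a lower bound on the spread, and reads carried no molecular identifiers.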

Additional observations from a re-analysis of the deposited data

How the results depend on the processing

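The 9 increases kept their direction under all 17 alternatives, and 8 of the 9 their call under all of them. KLF2 lost its call without LINC00665 replicate 2 and at an adjusted p of 0.01 (8 higher each). KLF6 alone gained a call, without Vector replicate 2, so the number of members called lower ran from 0 to 1 over the leave-one-out fits. Member log2 fold changes ranged most for EGR2, from 3.70 on log2(FPKM + 1) to 7.73, and for EGR3, from 3.28 to 6.54, where the added constant compresses low Vector values. KLF and SP relatives called lower numbered 0 in the edgeR fit with TMM, 3 with upper quartile and 3 with total count scaling, 1 with limma-voom, 2 with either FPKM constant, and 0 to 2 over the leave-one-out fits (1 without LINC00665 replicate 1 or Vector replicate 2, and 2 without Vector replicate 3). Heat shock genes called lower numbered 1, against 2 with upper quartile scaling, 3 with total count scaling, 3 with either FPKM constant and 1 to 3 over the leave-one-out fits (3 without Vector replicate 2). Total count scaling moved the median log2 fold change of all genes to -0.13 (0.03 with TMM), and KLF6 to -0.56 (edgeR adjusted p = 0.072); no member changed sign under any scaling. Replicate numbers did not pair the libraries: the deviations of same-numbered libraries correlated at 0.152, -0.132 and -0.154. With the replicate block 9 members were higher and 0 lower, and 4419 of all genes were higher and 3505 lower. Under the Vector label EGR2 and EGR3 rest on 23 and 40 counts.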

Other observations

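Beyond the members, 160 tested genes carried a CArG box in the 250 bases before a RefSeq start. Of these, 74 (46.2%) were higher and 40 (25%) lower under the LINC00665 label, with a median log2 fold change of 0.33. Of all 10748 tested genes with a promoter window, members left out, 33.0% were higher and 29.9% lower, with a median of 0.01. For the 3799 tested genes with the letters TGACG, the cyclic AMP response element core, the shares were 31.2% higher and 30.0% lower, with a median of 0.01. Of the early response genes only the members were left out. Any other immediate early gene with a box, from a list in which 27 of 30 rose, stayed among the 160. These shares are a description across genes, which are not independent replicates, and carry no test.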
